A study of Mus musculus with 9 samples.

Results

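Liver RNA was sequenced in bulk from 9 mice, and 10 genes of bile acid synthesis, bile acid transport and the FXR pathway were followed in every liver: Cyp7a1, Cyp8b1, Cyp27a1, Cyp7b1, Slc27a5, Baat, Slc10a1, Abcb11, Nr1h4 and Nr0b2. They were found by gene symbol and are 10 of the 56748 genes in the table. All 10 had counts in at least 1 library. The mice are labelled C57BL/6, with C57BL/6J named in the methods, and fell in 3 groups of 3. The DSS group is labelled DSS and is the vehicle-treated colitis group, given 3 cycles of 1.8% dextran sulfate sodium (DSS), a polymer that injures the colon lining, and 200 μL of sterile water by mouth each day. The Indirubin group is labelled DSS+Indirubin. On top of DSS it received indirubin, a bis-indole alkaloid of the herbal medicine indigo naturalis, at 1 g/kg/day by mouth, suspended in the same volume of water. Control mice are labelled water, with the same 200 μL volume recorded, and no DSS is named for them. The design text of the series, however, gives colitis to the whole set of mice before dividing it, so whether the Control livers came from healthy mice is not settled by the labels. Wild-type mice were bought at 7 to 8 weeks of age, and the age at sampling and the sex of the sequenced mice are not in the labels. In these livers Y-linked genes were read in every library, and Xist, which female cells express, had 0 counts in 8 of 9 libraries and 8 counts in Indirubin-2.

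Bile acids are made from cholesterol in hepatocytes. In the classical pathway Cyp7a1 carries out the first and rate-limiting step and Cyp8b1 adds the 12α-hydroxyl group that makes cholic acid. In the alternative pathway Cyp27a1 and Cyp7b1 act first. Slc27a5 and Baat join the acids to taurine or glycine, Slc10a1 (NTCP) takes them up from portal blood, and Abcb11 (BSEP) exports them into bile. The nuclear receptor FXR, encoded by Nr1h4, is activated by bile acids and raises Abcb11 and Nr0b2, and the Nr0b2 product, SHP, is a repressor that lacks a DNA-binding domain and lowers Cyp7a1 and Cyp8b1 through LRH-1 and HNF4A.

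The libraries held between 6514863 and 7944684 counts, of which 71.6 to 91.3% lay on mitochondrial genes, so that 569044 to 2132208 counts fell on nuclear genes. The mitochondrial share was 71.6% in Indirubin-2, 72.4% in DSS-3 and 77.2% in Indirubin-3, and 85.8% or more in every other library. The 10 bile acid genes together had 539 to 1958 counts per library. Values are given as normalized CPM, counts scaled to a common total by TMM over the 9 libraries, and 3 counts corresponded to 0.246 to 0.731 normalized CPM depending on the library. The tissue label was checked against 10 hepatocyte markers, whose summed level was 11900 to 19700 normalized CPM in Control, 11200 to 25900 in DSS and 11200 to 15600 with indirubin. Hpx and Fgb, which also encode acute-phase proteins, are among them, and the other 8 summed to 10800 to 18000 in Control, 8770 to 16500 in DSS, 10000 in Indirubin-1 and 6550 and 7480 in Indirubin-2 and Indirubin-3, the lowest 2 of the 9 livers. Albumin (Alb) alone lay between 4570 and 12800. Of the 8 cholangiocyte markers, Cftr was at 0 in every library. The list summed to 2.92 to 5.81 normalized CPM in Control, 3.9 to 9.78 in DSS and 7.9 to 12 with indirubin, from 12 to 139 counts. Libraries stood apart within the indirubin-treated group. Saa1, an acute-phase gene, had 53 counts in Indirubin-1 against 22582 and 29263 in the other 2 indirubin-treated livers, 12 to 55 in Control and 2287 to 49900 in DSS. No measurement here checks whether the mouse of the library labelled Indirubin-1 was treated as its label says, so every mean of the Indirubin group rests on that label, and every value without Indirubin-1 on the other 2 livers. All 12 pancreatic acinar markers were read in Indirubin-2 and Indirubin-3, where they summed to 1470 and 1460 normalized CPM, against 0 to 17.0 in the remaining 7 libraries. The same 2 livers also had the highest sums of 6 neutrophil markers (243 and 83.4 normalized CPM, against 24.4 in Indirubin-1, 11.5 to 19.8 in DSS and 1.17 to 3.17 in Control, which DSS did not overlap) and of 5 red blood cell markers (667 and 645, against 110 to 267), and 7 ileal enterocyte markers, mostly through Apoa4, summed to 181 in Indirubin-3 and 6.58 to 28.6 elsewhere. The 9 Kupffer cell and macrophage markers summed to 91.1 to 166 in Control, 136 to 161 in DSS and 170 to 197 with indirubin. Against Control, 7 of the 9 had higher and 2 lower estimates in DSS, and 6 had higher and 3 lower estimates with indirubin. The median log2 fold changes were 0.06 and 0.55, and Clec4f and Csf1r were lower in both. Only Marco, a scavenger receptor, had an edgeR adjusted p under 0.05, in DSS (log2 fold change 2.43, edgeR adjusted p = 0.0444) and with indirubin (3.83, edgeR adjusted p = 0.0468). The neutrophil genes S100a8 and S100a9 were higher than in Control with indirubin (6.27 and 5.12, edgeR adjusted p = 0.0288 for both). The part of RNA from other cells in any difference below was not tested, and values without Indirubin-1, or without Indirubin-2 and Indirubin-3, stand beside many of the results. In bulk RNA, fewer cells of a type and less RNA per cell cannot be told apart.

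For each comparison edgeR was run over all genes that passed its default filter on low counts (quasi-likelihood test), and its p-values were adjusted over those genes by the Benjamini-Hochberg method. Standard errors (SE) belong to the log2 fold changes of these fits. The 3 comparisons share libraries and are not independent of each other. With 3 mice against 3, an exact two-sided permutation test cannot give less than 0.10, which is its value for any gene whose groups do not overlap in the direction named.

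Between DSS and Control livers, Cyp8b1 fell by 2.71 on the log2 scale and was the one bile acid gene at an adjusted p under 0.05, a call that was lost in 4 of the 6 fits with 1 library left out (edgeR adjusted p between 0.0527 and 0.247). Nr0b2 had the opposite sign, with an estimate of 1.82 on that scale, and did not pass the adjusted threshold. Abcb11, Slc10a1, Baat, Slc27a5, Cyp27a1 and Nr1h4 had log2 fold changes between -0.45 and -0.07, with groups that overlapped. All 10 genes were tested, 8 with a lower and 2 with a higher estimate, and their median log2 fold change was -0.33, against 0.01 over the 7482 genes tested. 1 of 10 passed the adjusted threshold, where 0.708% of all tested genes did, and 2 of 10 had an unadjusted p under 0.05, where 7.52% did. The Wald test of DESeq2 likewise called 1 of 10, and 1.91% of all genes. The groups did not overlap for 2 of 10, Cyp8b1 and Nr0b2, against 15.6% of all tested genes. With library size as the only scaling, 8 of the 10 estimates were higher and 2 lower, while the median of all genes moved to 0.70. Relative to that median the genes lay at -0.39, against -0.34 with TMM.

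Indirubin-treated and DSS livers differed at no bile acid gene by the edgeR adjusted p, and the Wald test of DESeq2 also called 0, where it called 0.877% of all genes. Nr0b2 was the one gene at an unadjusted p under 0.05 and the one without overlap between the groups, lower with indirubin at a log2 fold change of -1.46. Uptake, export and conjugation genes had negative estimates too, from -0.32 for Baat to -1.11 for Abcb11, and their groups overlapped. Of the 10 genes tested, 8 had a lower and 2 a higher estimate, with a median log2 fold change of -0.82 against 0.15 over the 9117 genes tested. In all tested genes 0% passed the adjusted threshold, 7.68% had an unadjusted p under 0.05 and 16.4% did not overlap. The count of 1 in 10 at an unadjusted p therefore lay near that of all genes. Without Indirubin-1, Abcb11 passed the adjusted threshold (log2 fold change -2.29, edgeR adjusted p = 0.0276). In that fit 0.703% of all genes were called lower.

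Between indirubin-treated and Control livers, the synthesis, conjugation and transport genes were lower as a group of estimates, and both nuclear receptor genes were not. Cyp7a1 did not pass the filter on low counts, which left 9 genes, with 7 lower and 2 higher estimates and a median log2 fold change of -1.05 against 0.12 over the 8059 genes tested. Unadjusted p-values under 0.05 were found for 6 of the 9, all lower: Cyp7b1, Slc10a1, Abcb11, Slc27a5, Cyp27a1 and Cyp8b1. Among all tested genes 13.8% had such a p, and 6.38% had it with a lower level. No bile acid gene passed the adjusted threshold, where 0.236% of all genes did, while the Wald test of DESeq2 called Cyp7b1 and 3.92% of all genes. No overlap was found for 4 of the 9 genes, lower for Cyp7b1, Slc10a1 and Baat and higher for Nr1h4, against 21.6% of all tested genes. Single libraries moved the count of 6: it was 1 without Control-1, without Control-2 or without Indirubin-2, and 2 without Indirubin-3. In these fits 9.58 to 12.9% of all tested genes had an unadjusted p under 0.05, so a count of 1 lay near that share. Without Indirubin-1, 5 genes passed the adjusted threshold, where 3.29% of all genes were called lower. They were Cyp7b1, Abcb11, Cyp8b1, Cyp27a1 and Slc27a5, with log2 fold changes from -5.11 to -1.80. Without Indirubin-2 and Indirubin-3, which leaves Indirubin-1 as a lone library assumed to vary like the Control libraries, the median log2 fold change was -0.46 and 1 gene had an unadjusted p under 0.05, where 7.83% of all genes did. The 5 genes then had log2 fold changes of -2.44 (Cyp7b1), -0.48 (Abcb11), -0.37 (Cyp8b1), -0.24 (Cyp27a1) and -0.45 (Slc27a5).

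**Figure D1:**
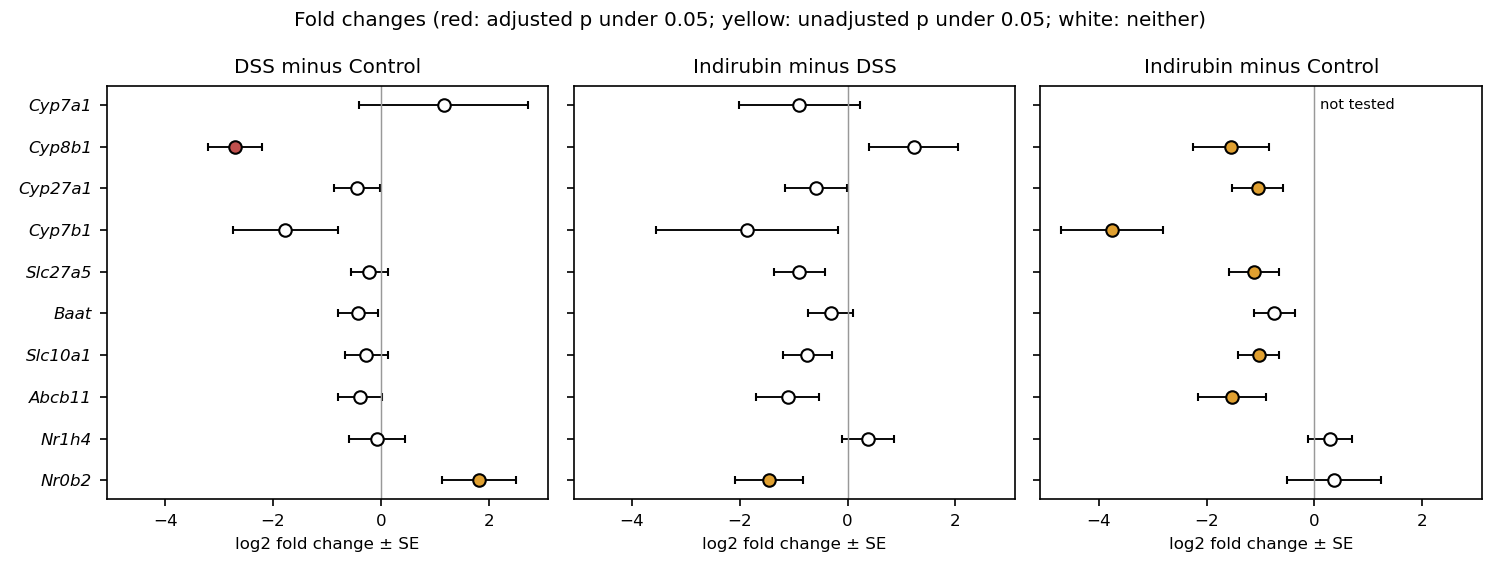
Log2 fold changes with standard errors (horizontal axis) of the 10 bile acid genes (vertical axis) in the 3 comparisons of 3 livers against 3, from edgeR. Cyp8b1 between DSS and Control is the one red point, at an adjusted p under 0.05, and Nr0b2 lies at 1.82 between DSS and Control and at -1.46 between indirubin-treated and DSS livers.

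Cyp8b1, the 12α-hydroxylase (ENSMUSG00000050445, chromosome 9, 121743422 to 121745371 in GRCm39, minus strand), had 17.1, 25.4 and 9.01 normalized CPM in the 3 Control livers, 2.49, 3.01 and 2.10 in the DSS livers and 13.4, 1.23 and 3.37 in the indirubin-treated livers. Every DSS liver was below every Control liver, and the DSS values lay close together. The DSS mean was 2.53 ± 0.457 and the Control mean 17.2 ± 8.18 normalized CPM (SD, n = 3), a log2 fold change of -2.71 (SE 0.50, edgeR adjusted p = 0.0245). The call was lost, at an edgeR adjusted p between 0.0527 and 0.247, when Control-1, Control-2, DSS-1 or DSS-3 was left out, while the log2 fold change stayed between -3.06 and -2.35. It was also lost with library size alone (edgeR adjusted p = 0.275), with all 9 libraries in one edgeR fit (0.171) and with a replicate block (0.0555). The range of the adjusted p over all alternatives was 8.9e-05 to 0.275. With indirubin the gene split by library. Indirubin-1 was within the range of the Control livers, and Indirubin-2 and Indirubin-3 lay just below and just above the DSS livers. The indirubin-treated mean was 6.00 ± 6.5 normalized CPM. Against DSS the log2 fold change was 1.23 (SE 0.83, edgeR adjusted p = 0.853), which became -0.24 without Indirubin-1 and 2.41 without Indirubin-2 and Indirubin-3.

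Cyp7a1, the rate-limiting enzyme of the classical pathway (ENSMUSG00000028240, chromosome 4, 6265612 to 6275633, minus strand), was read from few counts: 0, 19 and 0 in Control, 7, 27 and 18 in DSS and 6, 26 and 7 with indirubin. No ordering of the groups can be read from these counts, since the 3 ranges overlap and 2 of 3 Control libraries are at 0. A count of 0 allows up to 3 counts, or 0.584 and 0.731 normalized CPM in Control-1 and Control-3, and this limit covers counting error only. The log2 fold change between DSS and Control was 1.17 with a standard error of 1.57. It was 0.14 without DSS-2 and 7.07 without Control-2 (edgeR adjusted p = 0.757), a fit in which both remaining Control libraries are at 0 and the value is no measure of size.

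Nr0b2, encoding SHP (ENSMUSG00000037583, chromosome 4, 133280687 to 133283847, plus strand), had 4.47, 0.881 and 1.46 normalized CPM in the Control livers, 5.22, 8.15 and 10.5 in the DSS livers and 1.47, 5.08 and 1.99 in the indirubin-treated livers. Each DSS liver was above each Control and each indirubin-treated liver, although the lowest DSS liver (5.22) lay just above Indirubin-2 (5.08). The counts behind these levels were 23, 5 and 6 in Control, 44, 46 and 115 in DSS and 8, 62 and 23 with indirubin. The DSS mean of 7.96 ± 2.65 normalized CPM compared with 2.27 ± 1.93 in Control (log2 fold change 1.82, SE 0.69, edgeR adjusted p = 0.477) and with 2.85 ± 1.95 with indirubin (log2 fold change -1.46, SE 0.63, edgeR adjusted p = 0.624). Its direction was the same in every alternative run for these 2 comparisons, with log2 fold changes of 1.42 to 2.77 and of -2.42 to -1.03. Adjusted p-values over those alternatives were 0.213 to 0.958 and 0.412 to 1. Indirubin-treated and Control livers overlapped (log2 fold change 0.36, SE 0.88), and that estimate turned negative without Control-2 or without Indirubin-2.

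Nr1h4, encoding FXR itself (ENSMUSG00000047638, chromosome 10, 89290096 to 89369447, minus strand), had 7.98, 7.75 and 5.60 normalized CPM in Control, 10.2, 4.43 and 5.03 in DSS and 8.81, 8.28 and 8.55 with indirubin. The indirubin-treated livers were the most alike of the 3 groups and all lay above the Control livers, while the DSS livers spread across both. The largest estimate among the comparisons was a log2 fold change of 0.38 between indirubin-treated and DSS livers (SE 0.49), and no unadjusted p was under 0.05. The ratio of Nr0b2 to Nr1h4 in normalized CPM per kilobase of gene length, which is free of library scaling, was 0.19, -2.11 and -0.91 on the log2 scale in Control, 0.06, 1.90 and 2.09 in DSS and -1.56, 0.32 and -1.08 with indirubin. The groups overlapped in this ratio because DSS-1, the DSS liver with the most Nr1h4, lay at the level of Control-1.

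The 250 bases before the annotated start are shown for the gene that fell, for the SHP gene, whose estimate had the opposite sign, and for Abcb11, an FXR target whose DSS and Control livers overlapped. Sequences are from RefSeq on the GRCm38.p6 build, whose positions are not those of the GRCm39 gene coordinates given above, and are written 5′ to 3′ on the gene's strand. Windows were given for 6 of the 10 genes (Cyp8b1, Cyp27a1, Slc10a1, Abcb11, Nr1h4 and Nr0b2). Capitals mark, on either strand, CAAGG (the core of the LRH-1 site), CAAAGTCCA (an HNF4 site) and IR1, the inverted repeat of AGGTCA with a 1-base gap that FXR binds, allowing 2 mismatches. The first 2 motifs were chosen after the sequences had been read.
Cyp8b1, chr9:121916306-121916555, minus strand: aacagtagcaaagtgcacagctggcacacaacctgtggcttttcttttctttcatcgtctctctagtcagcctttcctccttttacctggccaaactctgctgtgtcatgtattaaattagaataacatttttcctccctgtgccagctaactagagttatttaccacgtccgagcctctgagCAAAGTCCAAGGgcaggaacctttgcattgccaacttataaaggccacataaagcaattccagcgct
Nr0b2, chr4:133553126-133553375, plus strand: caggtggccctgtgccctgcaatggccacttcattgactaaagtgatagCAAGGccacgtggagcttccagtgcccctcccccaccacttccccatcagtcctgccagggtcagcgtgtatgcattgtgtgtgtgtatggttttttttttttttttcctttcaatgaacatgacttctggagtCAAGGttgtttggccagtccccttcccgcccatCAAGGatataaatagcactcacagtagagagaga
Abcb11, chr2:69342617-69342866, minus strand: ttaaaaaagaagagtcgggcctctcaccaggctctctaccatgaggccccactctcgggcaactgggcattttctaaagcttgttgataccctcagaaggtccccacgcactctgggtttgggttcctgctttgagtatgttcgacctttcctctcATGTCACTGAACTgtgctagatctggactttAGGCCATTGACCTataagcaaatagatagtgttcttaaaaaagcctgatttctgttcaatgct

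In the Cyp8b1 window the HNF4 site lay 67 to 59 bases before the start and overlapped a CAAGG core at 60 to 56, so the capitals form one run. CAAAGTCCA was present in 0.384% of the 32851 windows of the table and CAAGG in 46%. Nr0b2 held CAAGG 3 times, beginning 201, 67 and 34 bases before the start, and no HNF4 site or IR1. Abcb11 held IR1 at 94 to 82 and at 63 to 51 bases before the start, where 0.959% of all windows held at least 1. Neither CAAGG nor CAAAGTCCA was in the Abcb11 window. The longer LRH-1 site CAAGGTCA, which contains both CAAGG and AGGTCA, was in 1.33% of all windows and in none of the 7 windows of the bile acid genes. Such matches are letters only, and no binding was measured.

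**Figure D2:**
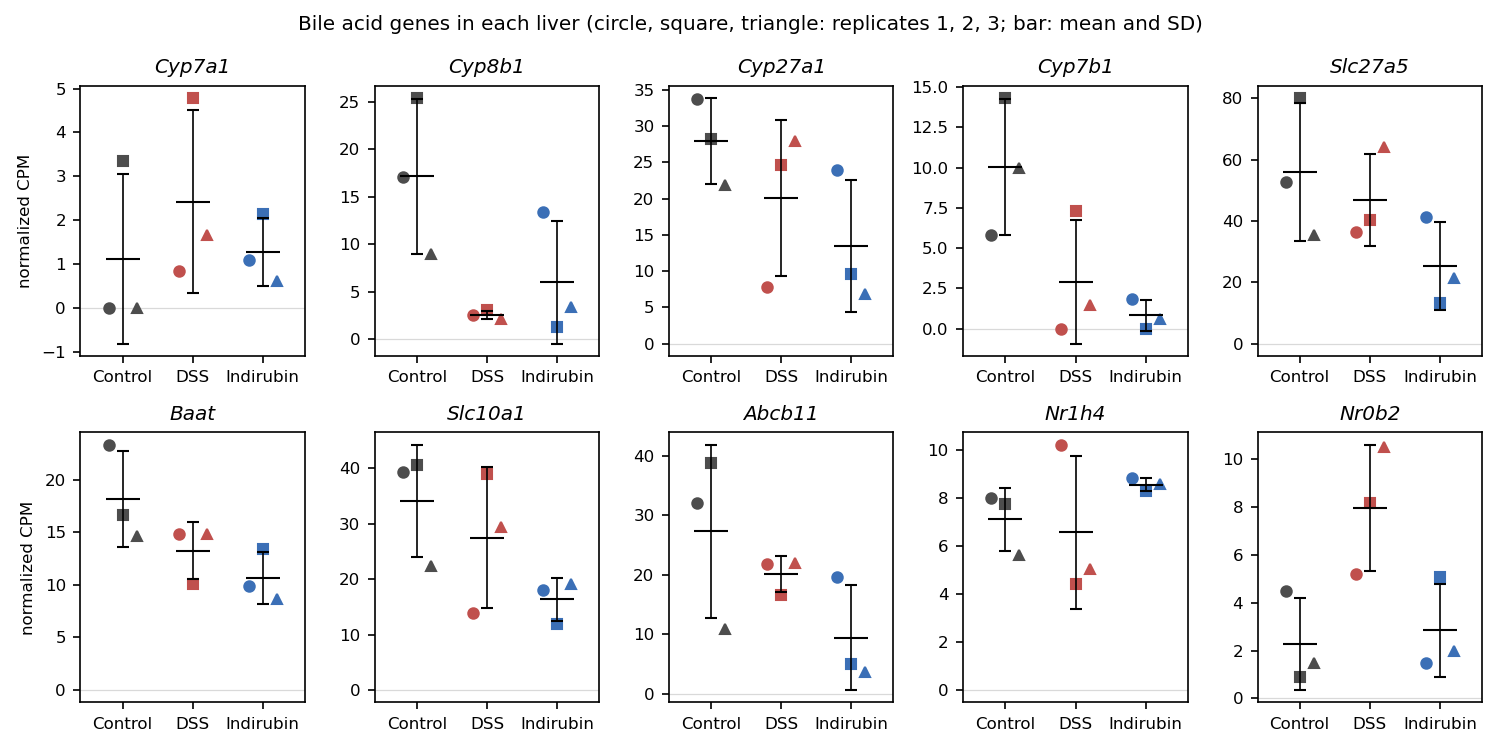
Normalized CPM (vertical axes, linear) of each of the 10 bile acid genes in the 9 livers, with Control, DSS and Indirubin on the horizontal axes, symbols for replicates and black bars for the group mean and SD. Cyp8b1 is at most 3.01 in the DSS livers and at 13.4 in Indirubin-1, and Nr0b2 is highest in the DSS livers.

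Cyp27a1 and Cyp7b1 belong to the alternative pathway. Cyp27a1, the sterol 27-hydroxylase (ENSMUSG00000026170, chromosome 1, 74752733 to 74777051, plus strand), had 33.7, 28.2 and 21.9 normalized CPM in Control, 7.82, 24.6 and 27.9 in DSS and 23.9, 9.67 and 6.83 with indirubin. DSS-1, Indirubin-2 and Indirubin-3 were the low livers, and every pair of groups overlapped. Its log2 fold change between indirubin-treated and Control livers was -1.05 (SE 0.47, edgeR adjusted p = 0.344). Against DSS it was -0.59, which became -1.39 without Indirubin-1 (edgeR adjusted p = 0.373) and 0.25 without Indirubin-2 and Indirubin-3. Cyp7b1, the oxysterol 7α-hydroxylase, is also known as a gene with higher expression in male liver (ENSMUSG00000039519, chromosome 3, 18126114 to 18297502, minus strand). Its counts were 30, 81 and 41 in Control, 0, 41 and 16 in DSS and 10, 0 and 7 with indirubin, or 5.84, 14.3 and 9.99 normalized CPM in Control, 0, 7.27 and 1.46 in DSS and 1.84, 0 and 0.605 with indirubin. All 3 indirubin-treated livers were below all 3 Control livers, and DSS overlapped both. The indirubin-treated mean was 0.814 ± 0.936 and the Control mean 10 ± 4.22 normalized CPM (log2 fold change -3.76, SE 0.95, edgeR adjusted p = 0.113). That adjusted p ranged from 7.23e-05 to 0.37 over the alternatives, with log2 fold changes of -5.11 to -2.44. Against Control, the estimate for DSS livers was -1.77 on the log2 scale (SE 0.97, edgeR adjusted p = 0.765), and it was -3.68 without DSS-2 and -1.19 without DSS-1. Indirubin-treated against DSS livers gave -1.87 (edgeR adjusted p = 0.924), -3.33 without Indirubin-1 and -0.63 without Indirubin-2 and Indirubin-3.

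Slc27a5 and Baat carry out conjugation, and Slc27a5, the bile acyl-CoA synthetase that precedes Baat (ENSMUSG00000030382, chromosome 7, 12722273 to 12732119, minus strand), had the most counts of the 10 genes in 8 of 9 libraries. It had 52.7, 80.0 and 35.3 normalized CPM in Control, 36.4, 40.2 and 64.1 in DSS and 41.3, 13.3 and 21.3 with indirubin. Indirubin-2 and Indirubin-3 were the lowest 2 of 9 livers, and Indirubin-1 lay among the Control and DSS livers. Its log2 fold change with indirubin was -1.13 against Control (SE 0.46, edgeR adjusted p = 0.303) and -0.89 against DSS (SE 0.47, edgeR adjusted p = 0.742). The value against DSS was -1.54 without Indirubin-1 (edgeR adjusted p = 0.138) and -0.18 without Indirubin-2 and Indirubin-3. Baat, the amino acid transferase (ENSMUSG00000039653, chromosome 4, 49489422 to 49506557, minus strand), had 23.3, 16.6 and 14.6 normalized CPM in Control, 14.8, 10.1 and 14.8 in DSS and 9.92, 13.4 and 8.64 with indirubin. The indirubin-treated livers lay below the Control livers without overlap, by a log2 fold change of -0.74 (SE 0.38, edgeR adjusted p = 0.418). The exact two-sided permutation test gave p = 0.10, its lowest possible value at n = 3 per group. With library size alone the log2 fold change was 0.27. Unlike Slc27a5, Baat was not lowest in Indirubin-2: the ratio of Baat to Slc27a5 in normalized CPM per kilobase of gene length was 0.34 on the log2 scale in that liver and -1.94 to -0.85 in the other 8.

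Slc10a1, the sodium-dependent uptake transporter NTCP (ENSMUSG00000021135, chromosome 12, 80999957 to 81015479, minus strand), had 39.3, 40.5 and 22.4 normalized CPM in Control, 13.9, 39.0 and 29.4 in DSS and 18.0, 11.9 and 19.1 with indirubin. The indirubin-treated livers lay below the Control livers without overlap and overlapped the DSS livers through DSS-1. With indirubin its log2 fold change was -1.04 against Control (SE 0.38, edgeR adjusted p = 0.250), and -0.13 with library size alone. Abcb11, the bile salt export pump (ENSMUSG00000027048, chromosome 2, 69068626 to 69172960, minus strand), had 32.1, 38.8 and 11.0 normalized CPM in Control, 21.8, 16.7 and 22.0 in DSS and 19.6, 5.08 and 3.72 with indirubin. Indirubin-2 and Indirubin-3 were the lowest 2 of the 9 livers, and Indirubin-1 lay among the DSS livers. The indirubin-treated mean of 9.48 ± 8.83 compared with 20.2 ± 3.04 in DSS (log2 fold change -1.11, SE 0.58, edgeR adjusted p = 0.742) and 27.3 ± 14.5 in Control (log2 fold change -1.53, SE 0.63, edgeR adjusted p = 0.302). Without Indirubin-1 these became -2.29 and -2.73 (edgeR adjusted p = 0.0276 and 0.0129), and without Indirubin-2 and Indirubin-3 they were -0.04 and -0.48. The highest group mean was in Control for Abcb11 and in DSS for Nr0b2, both FXR targets. Between DSS and Control, however, the Abcb11 groups overlapped (log2 fold change -0.38, SE 0.41), and neither gene passed the adjusted threshold.

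Levels between genes were compared per kilobase of the gene length in the deposited table. In each group Slc27a5, Slc10a1 and Cyp27a1 were the first 3 and Cyp7a1 the last. In Control the means were 23.0 ± 9.23, 15.5 ± 4.60 and 12.8 ± 2.70 normalized CPM per kilobase for the first 3 genes, and 0.267 ± 0.463 for Cyp7a1. Slc27a5 and Slc10a1, and Slc10a1 and Cyp27a1, differed by less than the larger SD of each pair. Cyp8b1 was at 8.80 ± 4.19 in Control, rank 5 of 10, at 1.30 ± 0.234 in DSS, rank 9, and at 3.08 ± 3.33 with indirubin, rank 6. Nr0b2 went from rank 9 in Control (2.01 ± 1.70) to rank 4 in DSS (7.03 ± 2.34) and rank 7 with indirubin (2.51 ± 1.73). The FPKM values that the authors deposited gave the same rank for every gene in every group.

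As a measure that does not depend on library scaling, each gene's share of the counts of the 10 genes was taken in every liver. Cyp8b1 took 7.91, 9.92 and 6.86% in Control, 2.19, 1.90 and 1.17% in DSS and 9.62, 1.76 and 4.51% with indirubin. On this scale too no DSS liver overlapped a Control liver, Indirubin-1 was within the Control range and Indirubin-2 within the DSS range. Nr0b2 took 2.07, 0.345 and 1.11% in Control, 4.60, 5.15 and 5.87% in DSS and 1.05, 7.26 and 2.66% with indirubin. Its DSS share lay above Control without overlap, as its level did, but Indirubin-2 had the highest Nr0b2 share of all 9 livers, so the separation of DSS from indirubin-treated livers was not seen on this scale. Nr1h4 took 11.8 and 11.4% in Indirubin-2 and Indirubin-3 and 2.80 to 8.99% in the other 7 livers. The median deviation of the 10 genes from the Control mean was 0.22, 0.44 and -0.44 on the log2 scale in Control, -0.40, -0.38 and -0.14 in DSS and -0.28, -1.47 and -1.16 with indirubin. Indirubin-1 and the DSS livers lay within the Control range on this measure, and the other 2 indirubin-treated livers lay lower than every other library.

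**Figure D3:**
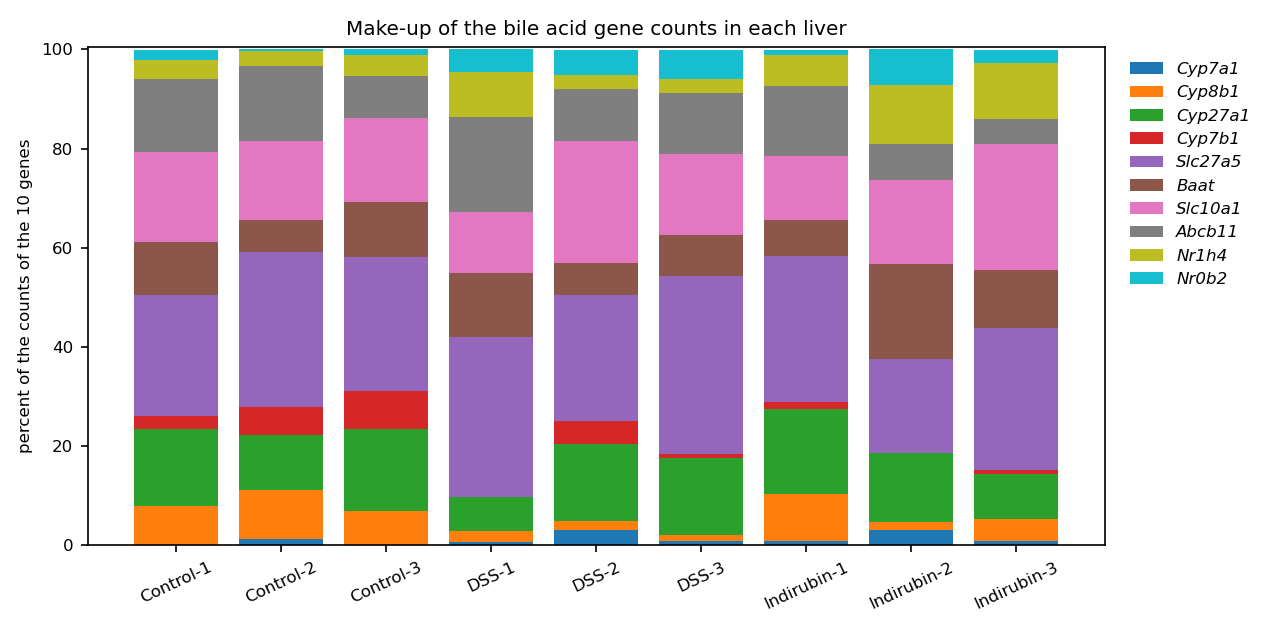
Percent of the counts of the 10 bile acid genes that each gene takes (stacked bars, vertical axis) in each of the 9 livers (horizontal axis). Cyp8b1 takes 6.86 to 9.92% in Control and 1.17 to 2.19% in DSS, and Nr1h4 is widest in Indirubin-2 and Indirubin-3, at 11.8 and 11.4%.

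Other genes of the pathway were listed by role. Of 15 further synthesis enzymes, 12 were tested between DSS and Control, 6 with higher and 6 with lower estimates, and 0 passed the edgeR adjusted threshold, where the DESeq2 Wald test called 1, Scp2. At an unadjusted p under 0.05 were 3 of the 12, all lower, against 7.52% of all tested genes. They were Scp2, the peroxisomal thiolase and sterol carrier (log2 fold change -0.90), Abcd3, a peroxisomal importer (-1.12), and Slc27a2, a very long chain acyl-CoA synthetase (-1.03). Scp2 was at 175 to 193 normalized CPM in DSS and 306 to 393 in Control, with no overlap. With indirubin Scp2 (log2 fold change -1.29) and Slc27a2 (-1.45) were lower than in Control at an unadjusted p under 0.05, and Abcd3 was not (-1.09). Among all genes tested in that comparison 13.8% had such a p. The DESeq2 Wald test called Scp2 lower there too. No enzyme of this list reached that p against DSS, where the smallest was that of Acox2 (log2 fold change 0.82), a side chain oxidase, followed by Akr1c6 (-1.57) and Scp2 (-0.37). Akr1c6, a member of the aldo-keto reductase family, was at 4.10 and 3.02 normalized CPM in Indirubin-2 and Indirubin-3 and at 52.9 to 105 in the other 7 livers. Its log2 fold change against DSS was -4.58 without Indirubin-1 (edgeR adjusted p = 0.000473) and -0.11 without Indirubin-2 and Indirubin-3. Without Indirubin-1, Scp2, Slc27a2 and Abcd3 also passed the adjusted threshold against Control (log2 fold changes -1.77, -2.04 and -2.28, edgeR adjusted p = 0.00388, 0.0175 and 0.00968), and without Indirubin-2 and Indirubin-3 these were -0.82, -0.84 and -0.03. Hsd3b7 and Ch25h were at 0 in every library. The Hsd3b7 row overlaps another annotated gene on its strand, so its 0 may not mean that the gene is silent.

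Of 14 further transporters of bile acids, organic anions and biliary lipids, 11 were tested between DSS and Control. An unadjusted p under 0.05 was found for 3, all lower, where 7.52% of all tested genes had one. Slco1a1, a sinusoidal organic anion uptake transporter that is higher in male liver, had 29.8, 26.1 and 20.5 normalized CPM in Control, 3.08, 8.51 and 8.32 in DSS and 18.0, 1.15 and 0 with indirubin. It did not overlap between DSS and Control (log2 fold change -1.91, SE 0.43, edgeR adjusted p = 0.0775), and as for Cyp8b1, Indirubin-1 lay nearer to Control than the other 2 indirubin-treated livers. Abcb4, the canalicular phospholipid transporter, was at 7.62 to 8.18 in DSS, 6.06 to 7.95 with indirubin and 11.7 to 19.1 in Control (log2 fold changes of -0.90 and -1.14 against Control). Abcg5, a subunit of the sterol exporter into bile, was at 0, 1.59 and 0.366 in DSS against 1.36, 4.93 and 9.99 in Control (log2 fold change -3.08, and -4.66 to -2.29 with 1 library left out), from 0 to 41 counts. With indirubin Abcg5 was at 5.32, 2.95 and 2.76, above every DSS liver (log2 fold change 2.54, SE 1.26, edgeR adjusted p = 0.702, and 1.82 to 4.07 with 1 library left out). Between indirubin-treated and DSS livers 5 of the 11 tested transporters had higher and 6 lower estimates, and the smallest p-values were those of Slco1b2, Abcg5 and Abcc3, a basolateral exporter (log2 fold change 0.71). Slco1b2, another uptake transporter, was at 10.2 and 8.55 in Indirubin-2 and Indirubin-3 against 35.8 in Indirubin-1 and 40.9 to 71.7 in DSS (log2 fold change -1.62, edgeR adjusted p = 0.496). Without Indirubin-1 Slco1b2 passed the adjusted threshold against DSS (log2 fold change -2.67, edgeR adjusted p = 0.00739) and against Control (-2.33, edgeR adjusted p = 0.00324), and without Indirubin-2 and Indirubin-3 it was at -0.63 and -0.31. Against Control, Ephx1, microsomal epoxide hydrolase, had a log2 fold change of -1.40 with indirubin (edgeR adjusted p = 0.198), which was -2.23 without Indirubin-1 (edgeR adjusted p = 0.00436) and -0.58 without Indirubin-2 and Indirubin-3. With all libraries, in edgeR 0 of the tested transporters passed the adjusted threshold in any comparison, and the DESeq2 Wald test called 1, Slco1a1 between DSS and Control. Slc51a, a subunit of the basolateral exporter, was at 0 in every library.

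Of 16 further regulators, 10 were tested between DSS and Control, 5 with higher and 5 with lower estimates, and 0 had an unadjusted edgeR p under 0.05 in any of the 3 comparisons, nor did the DESeq2 Wald test call any. Hnf4a, the hepatocyte nuclear receptor that drives Cyp8b1, was at 67.3 to 76.0 normalized CPM in DSS, 48.1 to 84.3 in Control and 63.2 to 79.7 with indirubin, and Rxra, the partner of FXR, was at 25 to 55.8, 37.7 to 43.1 and 31.2 to 41.6. Nr5a2, which encodes LRH-1, was read from 9 to 95 counts, at 1.59 to 6.28 normalized CPM in DSS, 1.94 to 8.28 in Control and 5 to 8.81 with indirubin. The levels of all 3 overlapped between every pair of groups. The smallest p-values of the list belonged to Klb, Ppara and Nr1h3 between DSS and Control (log2 fold changes 1.62, -0.93 and 0.22), to Nr5a2, Klb and Prox1 between indirubin-treated and DSS livers (1.02, -2.06 and 0.77) and to Foxa2, Prox1 and Nr5a2 between indirubin-treated and Control livers (2.24, 1.43 and 0.75). Fgf15, the ileal hormone that represses synthesis, and Gpbar1, the membrane bile acid receptor, were at 0 in every library. Of 11 listed FXR targets, which include Nr0b2, Abcb11, Baat and Slc27a5, 7 were tested in each comparison. With indirubin 6 of the 7 had lower estimates than in DSS (median -0.89) and 5 of the 7 than in Control (median -1.13). At an unadjusted edgeR p under 0.05 were 2 and 4 of them, all lower, where 7.68% and 13.8% of all tested genes had such a p. Sdc1, a cell surface heparan sulfate proteoglycan of hepatocytes, was at 9.36, 2.87 and 10.4 with indirubin, below the 23.4, 17.7 and 59.5 of DSS, at a log2 fold change of -2.16 (SE 0.59, edgeR adjusted p = 0.433). Without a filter on low counts Sdc1 passed the adjusted threshold (-2.29, edgeR adjusted p = 0.00407), and over all alternatives that p was 0.00407 to 1. Between DSS and Control, Nr0b2 and Sdc1 (0.70) had higher and the other 5 lower estimates, and Apoc2, whose row also overlaps another gene on its strand, was at 0.

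Several lists of other liver genes moved with the groups, and their part in the bile acid results was not tested. The 12 acute-phase genes all had higher estimates in DSS than in Control, 7 of them at an adjusted p under 0.05, and their summed level was 1240 to 1970 normalized CPM in Control and 3600 to 19400 in DSS. In Indirubin-1 it was 1380, against 9930 and 15100 in Indirubin-2 and Indirubin-3. The 12 male-biased genes, a list that holds Cyp7b1 and Slco1a1, all had lower estimates in DSS than in Control, 4 of them at an adjusted p under 0.05, and summed to 2360 to 2710 in Control, 381 to 1430 in DSS and 202 to 781 with indirubin. Selenbp2 (log2 fold change -5.32) and Elovl3 (-3.37) had the smallest p-values of that list, and Saa1 (8.26) and Orm2 (7.74) those of the acute-phase list. These lists hold near-identical relatives (Saa1 and Saa2, Orm1 and Orm2), between which reads may have been split, and the same may hold for Selenbp2, whose relative is in neither list. Unlike Cyp8b1, the male-biased sum of Indirubin-1 (781) lay outside the Control range. Hepatocyte markers had 8 of 10 estimates lower in DSS than in Control. At an unadjusted p under 0.05 were 1 lower and 2 higher, against 7.52% of all tested genes. DESeq2 called Hpx and Fgb higher. With indirubin 6 of 10 were lower than in Control, 4 lower and 1 higher at an unadjusted p under 0.05. Among all tested genes 13.8% had such a p, 6.38% with a lower level. DESeq2 called Hpx higher and Apoa1 and Ttr lower. The median log2 fold change of the markers was -0.75, against -1.05 for the bile acid genes tested. Hpx and Fgb, which also encode acute-phase proteins, are in that median, and it was not taken without them.

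**Figure D4:**
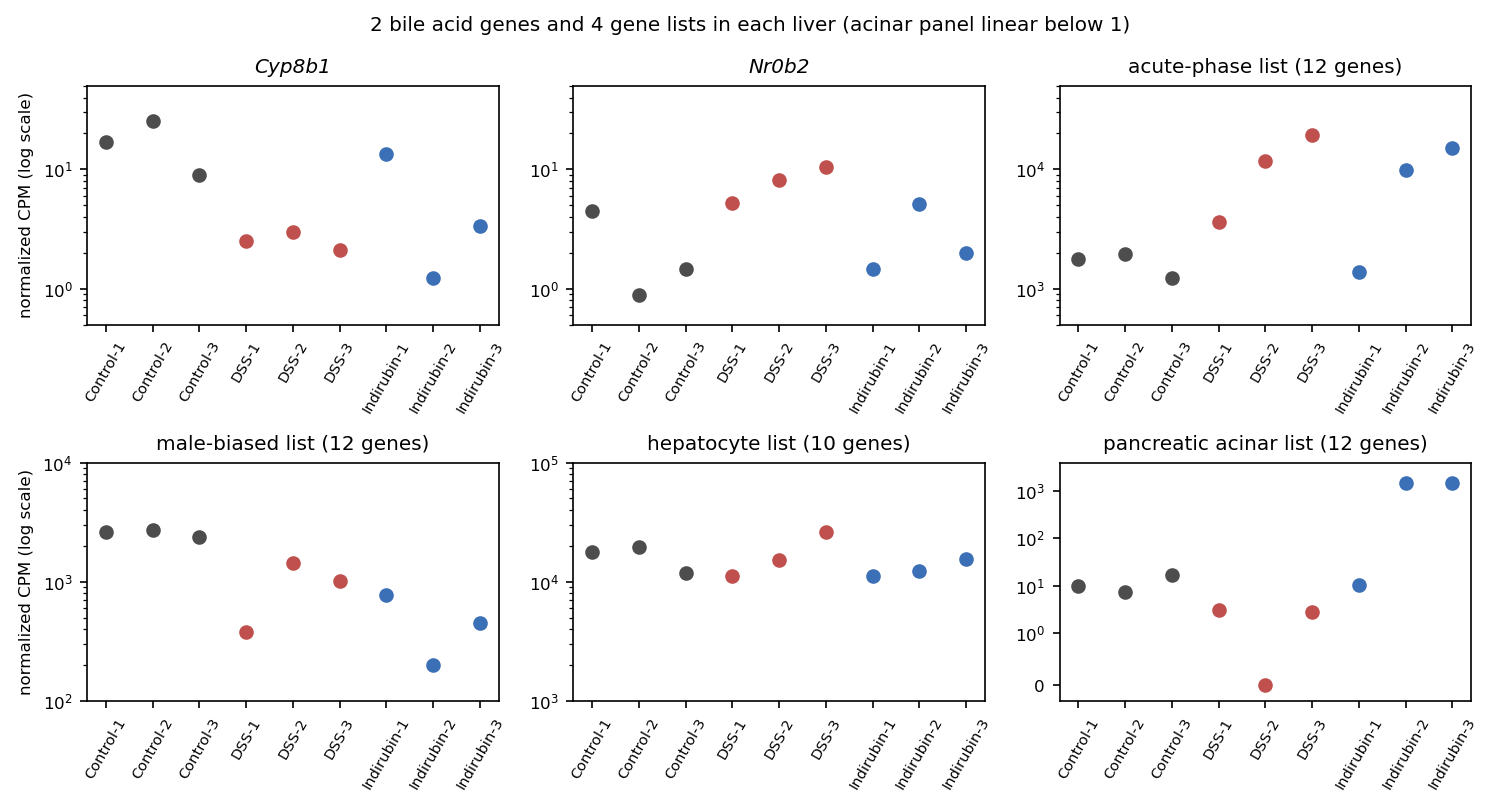
Normalized CPM (vertical axes, log scale, linear below 1 in the acinar panel) of Cyp8b1, Nr0b2 and the sums of 4 gene lists in each of the 9 livers (horizontal axes), colored by group: Control grey, DSS red, Indirubin blue. Indirubin-1 lies with the Control livers for Cyp8b1 and the acute-phase sum, and Indirubin-2 and Indirubin-3 are alone in the acinar sum, at 1470 and 1460.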

How the data were processed

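The data are bulk RNA-seq of 9 mouse livers, read on DNBSEQ from 400 ng of column-purified RNA each (RNeasy Plus Micro). The authors deposited whole-number counts per gene, not normalized, and FPKM values made from them, which served here to check the order of levels; the genome build is GRCm39 per the submitters' processing notes, and the aligner, counter and strand setting are not given in the sources used here. The same table's columns of the authors' fold changes and p-values, and 3 lists of genes with no value per mouse, were not used. For testing, edgeR 4.0.16 was run in R 4.3.3 on the counts (TMM, filterByExpr at its minimum count of 10 and total of 15, glmQLFit and glmQLFTest on the 6 libraries of each comparison, Benjamini-Hochberg over all genes tested, threshold 0.05). SE is the absolute log2 fold change over the root of F. Displayed CPM use TMM factors over all 9 libraries. Nothing says that the libraries of a group are more than separate samples of 3 mice. The p-values set a group difference against the variation between libraries, which edgeR estimates with information shared across genes. Totals were 6514863 to 7944684 counts.

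The 10 genes and all gene lists were chosen with earlier results of these data known. Named besides the 10 genes are, per comparison, up to 3 genes with the smallest p of each pathway list, up to 2 of the acute-phase, male-biased, clock and cholesterol lists, list genes at 0 in every library and abundant markers (some genes of the cholesterol list are not reported here); Hnf4a, Rxra and Xist were added after their values were seen. Alternatives were DESeq2 1.42.0 size factors, its Wald test, library size alone, no mitochondrial genes, no filter, at least 10 counts in every library, all 9 libraries in one fit, a replicate block, each library left out, and Indirubin-2 and Indirubin-3 left out. The edgeR script was tested on simulated data. Same-numbered libraries of different groups did not deviate together (correlations of -0.022 to 0.028), so the numbers were not taken as pairs. Promoter windows were searched in Python 3.11.15.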

Additional observations from a re-analysis of the deposited data

How the results depend on the processing

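Of 416 refits of single bile acid genes, 384 kept direction and side of the adjusted threshold. Only Cyp8b1 between DSS and Control was called in the main fits, so for every other result staying uncalled with the same sign counted as kept. The Cyp8b1 call was lost in 7 of its 14 alternatives. The cause of the changes below was not tested, except that library size alone shifts all genes: their median moved from 0.01 to 0.70 between DSS and Control, where the median of the bile acid genes became 0.31 and the log2 fold changes of Cyp27a1, Slc27a5, Baat, Slc10a1, Abcb11 and Nr1h4 became 0.25, 0.50, 0.28, 0.34, 0.27 and 0.58. Between indirubin-treated and Control livers that scaling gave 0.27 for Baat and a median of -0.29, while the median of all genes rose to 1.10, so that the bile acid genes lay at -1.39 relative to it (-1.18 with TMM). Without Indirubin-2 and Indirubin-3, Cyp27a1 was at 0.25, Scp2 at 0.14, Saa3 at -2.48 and Tef at -0.35 against DSS with a median of -0.30, and against Control Nr0b2 was at -0.64 with a median of -0.46.

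Leaving out 1 library at a time, log2 fold changes between DSS and Control ran from -0.50 to 0.10 for Slc27a5, -0.653 to 0.0357 for Slc10a1, -0.57 to 0.12 for Nr1h4 and -0.0488 to 0.393 for Nr1h3. Against DSS, indirubin gave -0.24 to 1.71 for Cyp8b1 and -3.33 to 0.0148 for Cyp7b1, and against Control -0.36 to 1.30 for Nr0b2. The number of bile acid genes at an adjusted p under 0.05 then ran from 0 to 1, 0 to 1 and 0 to 5 in the 3 comparisons (DSS against Control, indirubin against DSS, indirubin against Control), and at an unadjusted p from 1 to 3, 0 to 3 and 1 to 6. In the same fits 0.14 to 0.797%, 0 to 1.24% and 0.01 to 4.78% of all tested genes passed the adjusted threshold. An unadjusted p under 0.05 was found for 4.88 to 7.71%, 4.89 to 10.5% and 9.58 to 17.5% of them.

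The number at an adjusted p was 0 between DSS and Control with library size alone (0.254% of all genes), with all 9 libraries in one fit (0.113%) and with the replicate block (0.401%), and between indirubin-treated and Control livers 1 without a filter (1.66%) and 1 with the DESeq2 Wald test (3.92%). At an unadjusted p it was 1 of 7 tested between DSS and Control when every library had to hold 10 counts (13.2% of all genes), and 3, with Cyp7b1 added, without a filter (4.34%) and with the replicate block (6.24%). For indirubin against DSS it was 0 with library size alone (5.59%), with all 9 libraries in one fit (8.65%) and under that same minimum (12.2%), 3 without a filter (6.23%), 3 with the replicate block (7.48%) and 2 without Indirubin-2 and Indirubin-3 (3.75%). For indirubin against Control it was 1 with library size alone (27.6%) and 1 without Indirubin-2 and Indirubin-3 (7.83%). With the replicate block Cyp8b1 between DSS and Control had an edgeR adjusted p of 0.0555. The block is a shared number only, since same-numbered libraries did not deviate together (correlations of -0.022 to 0.028 by number). Cyp7a1 was read from 0 to 27 counts per library, Cyp7b1 from 0 to 81 and Nr0b2 from 5 to 115, which limits their precision.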

Other observations

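Bile acids are made from cholesterol, and 11 genes of cholesterol supply and sensing were read beside them. Between DSS and Control 10 were tested, 6 with higher and 4 with lower estimates, and 0 had an edgeR p under 0.05 before or after adjustment. Sqle, squalene epoxidase, had the smallest p-value, at a log2 fold change of -0.74. With indirubin 9 of 10 tested genes had a lower estimate than in Control and 8 of 11 than in DSS, at medians of -0.95 and -0.36. Insig1, an endoplasmic reticulum protein that holds back sterol-regulated transcription, had log2 fold changes of -1.16 and -1.40 in these comparisons. Without Indirubin-1 the value against Control was -1.75 (edgeR adjusted p = 0.0174) and that against DSS -1.97, and without Indirubin-2 and Indirubin-3 they were -0.54 and -0.76 (edgeR adjusted p = 0.91 and 1). With all libraries, edgeR and the DESeq2 Wald test each called 0 genes of this list by the adjusted p in every comparison.

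Clock genes, listed because bile acid synthesis follows the time of day, were read from few counts, and 5 to 8 of 13 were tested. Both edgeR and the DESeq2 Wald test called 0 of them, and at an unadjusted edgeR p under 0.05 there were 2, Nr1d1 and Tef, between indirubin-treated and Control livers. Nr1d1, a clock repressor, had log2 fold changes of 2.07 (DSS minus Control) and 2.78 (Indirubin minus Control), and Arntl had 1.67 (DSS minus Control). Tef was at 1.35 (Indirubin minus Control) and 0.93 (Indirubin minus DSS), and Per3 at 3.01 (Indirubin minus DSS). Without Indirubin-2 and Indirubin-3, Nr1d1 was at 1.45 and Tef at 0.02 against Control. The hour of sampling is not in the labels.

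In the acute-phase list, indirubin-treated livers had 4 of 12 estimates higher and 8 lower than DSS livers, with Crp at a log2 fold change of -1.12 and Saa3 at 2.83, which was -2.48 without Indirubin-2 and Indirubin-3. Against Control, edgeR called 0 of the 12 by the adjusted p and the DESeq2 Wald test 8, all higher, where it called 3.92% of all genes. Orm2 (5.97) and Saa1 (7.66) had the smallest edgeR p-values there, both at an adjusted p of 0.0549. Without Indirubin-1 they were at 6.35 and 8.09 (edgeR adjusted p = 0.000325 and 1.22e-05), and without Indirubin-2 and Indirubin-3 at 2.39 and 0.38 (0.729 and 0.964). The male-biased list had all 8 tested estimates lower than in DSS, with Serpina1e at -0.98 and Mup20 at -1.49, and all 11 lower than in Control, with Serpina1e at -2.25. Of these 11, edgeR called 0 by the adjusted p and the DESeq2 Wald test 5. Mup20 against DSS was -4.40 without Indirubin-1 (edgeR adjusted p = 0.00451) and -0.05 without Indirubin-2 and Indirubin-3, and Serpina1e against DSS was -1.41 and -0.49. Against Control Serpina1e was -2.71 (edgeR adjusted p = 0.00254) and -1.81. Cyp4a12b, which shares most of its sequence with Cyp4a12a so that reads may be split between them, had 14, 20 and 14 counts in Control and 0 in the other 6 libraries. These lists, like the others, were chosen with results of these data known.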
